A study of Mus musculus with 6 samples.

Results

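The 34 genes described here encode the glucose carriers and enzymes of glycolysis, the enzymes that decide the fate of pyruvate, the lactate carriers, and the oxygen-sensing factor HIF-1alpha with its regulators and a few of its targets. They come from a list of mouse symbols, and all 34 of 34 were found among the 36528 Entrez identifiers counted, through the RefSeq annotation of GRCm38. Each passed the filter on low counts and was tested among 15132 genes. Polyadenylated RNA came from skin cells sorted for CD49f and CD34 and against GFP, the surface profile of stem cells in the hair follicle bulge, from mice that carry a fusion of the diphtheria toxin receptor and eGFP at the Lgr5 locus (Lgr5-DTReGFP). One group of 3 libraries came from mice given saline (labelled NaCl), and another of 3 from mice given diphtheria toxin (DT), which kills cells that express the receptor. All 6 libraries carry the receptor allele, so no group separates the toxin itself from the loss of Lgr5-expressing cells, and the age of the mice, the dose of DT and the time after DT are not in the labels. Whether each library came from its own mouse is not stated either, so p-values measure the spread between libraries, which may be technical.

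Glycolysis splits a molecule of glucose into pyruvate in the cytosol. Its upper steps consume ATP to phosphorylate and split the sugar, and its lower steps, from Gapdh to Pkm, yield ATP and NADH. Pyruvate is either reduced to lactate by lactate dehydrogenase and exported, or enters the mitochondria through pyruvate dehydrogenase, which the Pdk kinases switch off. Under low oxygen HIF-1alpha escapes prolyl hydroxylation by the Egln enzymes and raises the transcription of many of these genes. Hair follicle stem cells are known for a strong reliance on lactate production, and HIF-1 is known to bind the letters ACGTG or GCGTG in promoters.

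Reads in genes came to 15300755 to 25558859 per library, the lowest in DT library 2, with 17405 to 20994 genes detected. Over all genes, the first principal component (76.2% of the variance) divided the treatments, while on the second (10.2%) saline library 1 lay away from its group. The bulge markers Krt15, at 23940.5 to 42949.7 CPM (counts scaled to the size of the library), and Cd34, at 1883 to 3088 CPM, were high in all 6 libraries and did not pass. Of the 10 bulge markers listed 4 were lower in DT (Lgr5, Lhx2, Sox9 and Nfatc1, log2 fold changes -1.76, -1.09, -0.71 and -0.69) and 1, Krt14, was higher (1.78), with a median of -0.43. All 12 of 12 proliferation genes listed were higher in DT, with a median log2 fold change of 3.61 and a summed level of 144 to 179 CPM in saline and 819 to 1568 CPM in DT. Of the immune markers tested, 5 of 10 were lower and 1 was higher (16 listed, summed level 188 to 272 CPM in saline and 123 to 158 in DT, with Ly6g, Mcpt4 and Cpa3 at 0 in every library). Suprabasal markers were lower in 6 of 10 cases (1547 to 1983 against 1250.1 to 1415 CPM). Melanocyte markers were lower in 3 of 5 cases tested (7 listed, 99.6 to 142 against 64.8 to 83.7 CPM), with a median log2 fold change of -1.92. Smooth muscle and pericyte markers were higher in 3 of 4 cases tested (8 listed, 232 to 334 against 289.6 to 360.4 CPM, median 2.71), namely Acta2, Cnn1 and Tagln, with Rgs5 at 0 in every library. Their summed levels overlapped between the groups, so these 3 rises are not a rise of the whole list. Fibroblast and endothelial markers each had 1 lower gene (24.0 to 43.1 against 9.80 to 17.4 CPM, and 7.31 to 47.8 against 13.8 to 18.3 CPM). Skeletal muscle markers had 1 higher gene (8.56 to 10.98 against 13.6 to 15.7 CPM), and red cell markers summed to at most 4.27 CPM. Among all genes tested 17.2% were higher and 11.9% lower. The marker shifts ran alongside every difference reported here, and their part in it was not tested. In sorted bulk RNA fewer cells of a type and less RNA per cell cannot be told apart.

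The promoters of 4 members are shown because they stand for both directions of change: Ldha and Pgk1 were higher in DT, Hk2 and Pdk2 lower. Each is the stretch of 250 bases before a RefSeq start on build GRCm38.p6, free of annotated exons. They lie at chr7:46845554-46845803 (plus strand) for Ldha, chrX:106186850-106187099 (plus) for Pgk1, chr6:82774455-82774704 (minus) for Hk2 and chr11:95041372-95041621 (minus) for Pdk2. Capitals mark the letters ACGTG or GCGTG on either strand (CACGT or CACGC as printed), the core of the HIF-1 recognition sequence. A full CACGTG, the E-box that Myc and other factors recognise, holds a match on both strands.
Ldha: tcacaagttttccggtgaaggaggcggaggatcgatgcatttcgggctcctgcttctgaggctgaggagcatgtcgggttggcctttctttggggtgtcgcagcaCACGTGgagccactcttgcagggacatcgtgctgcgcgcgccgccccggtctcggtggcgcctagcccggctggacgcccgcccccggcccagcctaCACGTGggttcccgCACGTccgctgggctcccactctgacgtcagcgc
Pgk1: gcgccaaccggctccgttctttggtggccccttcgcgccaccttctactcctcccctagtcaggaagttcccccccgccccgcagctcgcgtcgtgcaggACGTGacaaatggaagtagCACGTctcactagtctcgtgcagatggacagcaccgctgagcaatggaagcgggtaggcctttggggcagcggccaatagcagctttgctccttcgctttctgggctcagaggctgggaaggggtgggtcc
Hk2: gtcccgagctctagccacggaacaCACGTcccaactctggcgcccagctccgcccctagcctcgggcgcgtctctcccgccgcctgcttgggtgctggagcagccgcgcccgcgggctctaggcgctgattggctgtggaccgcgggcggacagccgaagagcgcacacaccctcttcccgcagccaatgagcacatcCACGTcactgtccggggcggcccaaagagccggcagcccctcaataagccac
Pdk2: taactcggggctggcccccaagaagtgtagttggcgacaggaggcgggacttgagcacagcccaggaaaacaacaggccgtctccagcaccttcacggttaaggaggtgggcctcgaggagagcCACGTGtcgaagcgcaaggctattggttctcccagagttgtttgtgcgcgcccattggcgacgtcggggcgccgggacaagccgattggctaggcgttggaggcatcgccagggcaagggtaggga
In the windows printed, Ldha had 5 matches over both strands, and Pgk1, Hk2 and Pdk2 had 2 each. Ldha and Pdk2 have another RefSeq start with a window free of annotated exons. Those windows, chr7:46846832-46847081 and chr11:95040876-95041125, held 1 and 0 matches, so the count depends on the start chosen. Of the 33 members with a promoter in the table, 30 held such a match (90.9%), beside 59.7% of the tested genes with a promoter. Counted by promoter window, since many members have several starts, 80.0% of 50 windows held one, beside 53.8% of windows of tested genes and 38.6% of all 32851 windows. Matches were found in 5 of 7 members higher in DT, in 5 of 5 lower and in 20 of 21 with a promoter that did not pass. The higher members without a match were Eno2, which had the largest change, and Tpi1. The letters were thus present in genes of every direction, and a match describes the sequence only. The list was drawn up to hold glycolysis and hypoxia response genes, so its share of matches is not that of a neutral set. CACGTG was in 8 of the 33 members (24.2%), beside 9.61% of tested genes.

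Setting DT against saline addressed what the GFP-negative bulge cells express once DT has been given to mice whose Lgr5-positive cells carry its receptor. The lower glycolytic enzymes Pgk1, Eno1, Eno2 and Pkm (4 of 7), the triose isomerase Tpi1, lactate dehydrogenase A and the lactate carrier Slc16a1 were higher in DT, while hexokinase 2, aldolase C, the regulator Pfkfb2, the kinase Pdk2 and the oxygen sensor Egln1 were lower. Of the 34 genes, 7 rose and 5 fell, and 22 did not pass (edgeR quasi-likelihood test, Benjamini-Hochberg adjusted p under 0.05 over all genes tested). As shares these were 20.6% higher and 14.7% lower, beside 17.2% and 11.9% of all genes tested and 29.0% in either direction. The shares of the list were therefore near those of the whole transcriptome, and the list did not stand out by its number of changes. The median log2 fold change of the members was 0.07, beside -0.01 over all genes. All DT libraries lay above all saline libraries for 9 members (background 25.4%) and below for 8 (background 20.5%). In a fit within the larger of the 2 runs of sample identifiers, with 2 libraries a group, Pgk1 (adjusted p = 0.0560), Pdk2 (0.0668), Aldoc (0.0898) and Pfkfb2 (0.0898) no longer passed, nor did Tpi1, Slc16a1 and Egln1.

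**Figure D1:**
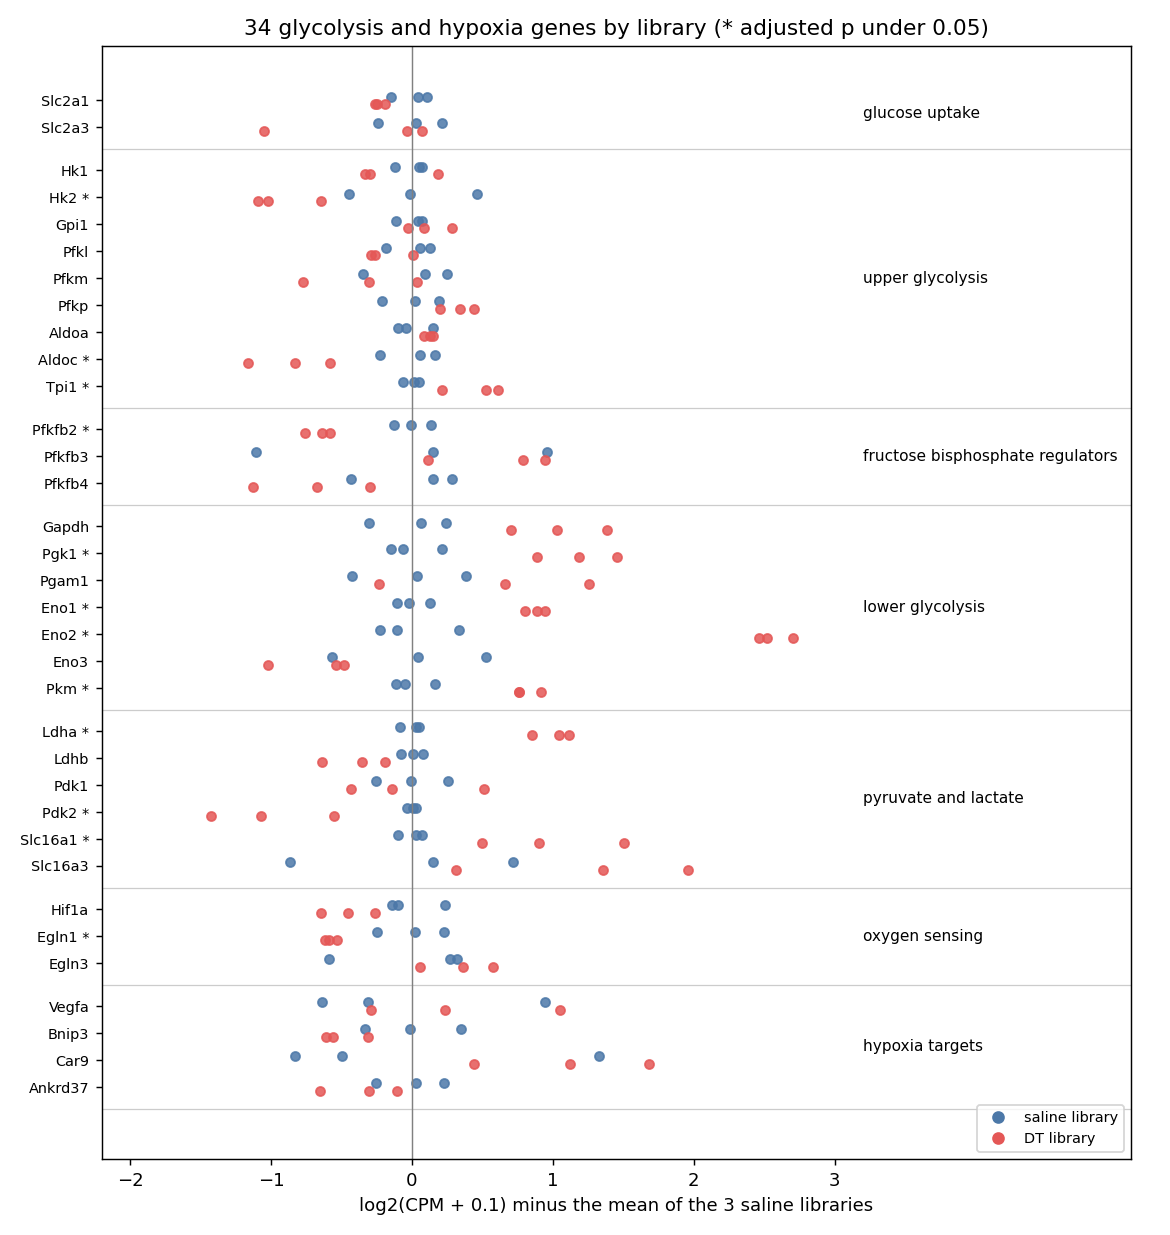
Each point is a library (blue saline, red DT) and shows log2(CPM + 0.1) minus the mean of the 3 saline libraries, for the 34 genes grouped by role, with an asterisk where the adjusted p was under 0.05. The DT points of Eno1, Eno2, Pkm, Pgk1 and Ldha lie to the right of all saline points, those of Hk2, Aldoc, Pfkfb2, Pdk2 and Egln1 to the left.

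In the lower part of glycolysis 4 of 7 genes rose and the other 3 did not pass, with a median log2 fold change of 0.88. Over all genes tested 17.2% were higher and 11.9% lower. Eno2 (Entrez 13807, chromosome 6 from 124760053 to 124769673), the enolase known as the neuronal form, was at 4.85, 6.61 and 4.47 CPM in saline libraries 1 to 3 and at 30.4, 29.3 and 34.7 CPM in DT libraries 1 to 3. Every DT library was several times above every saline library, and the spread within each group was small. The log2 fold change was 2.57 (SE 0.21 and adjusted p = 5.75e-05), a 5.93-fold difference. Markers of Merkel cells and nerves, cell types in which Eno2 is usually found, summed to 2.28 to 9.25 CPM in saline and 2.01 to 4.74 CPM in DT. The list held 10 genes, of which 3 were tested, with Atoh1 at 0 in every library. How much Eno2 RNA such a cell holds beside these markers is not known here, so the level of Eno2 cannot be read against that sum. Whether such cells contributed to the Eno2 reads was not tested.

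Eno1 (Entrez 13806, chromosome 4 from 150236708 to 150248879), the ubiquitous enolase, which turns 2-phosphoglycerate into phosphoenolpyruvate, was at 112, 125 and 106 CPM in saline, against 199.6, 219.8 and 211 CPM in DT. The groups did not overlap, and Eno1 rose by 0.88 on the log2 scale (SE 0.12 and adjusted p = 0.000955). Pkm (Entrez 18746, chromosome 9 from 59656576 to 59679372), the pyruvate kinase of most tissues, stood at 393, 476 and 412 CPM in saline, against 722, 801 and 722 CPM in DT (log2 fold change 0.81 with SE 0.13, adjusted p = 0.00173). Counts per gene do not separate its PKM1 and PKM2 splice forms. Pgk1 (Entrez 18655, X chromosome from 106187100 to 106203699), the first ATP-yielding kinase of the pathway, went from 10.03, 7.77 and 8.25 CPM to 16.0, 23.8 and 19.7 CPM (log2 fold change 1.19 with SE 0.22, adjusted p = 0.00378). In all 3 genes every DT library lay above every saline library.

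The other 3 genes of this part of the pathway did not pass. Gapdh, the dehydrogenase that yields NADH, had 28, 33 and 40 reads in saline and 52, 59 and 77 in DT. Its groups did not overlap at 1.47 ± 0.292 and 3.16 ± 0.765 CPM (SD, n = 3), with a log2 fold change of 1.09 (SE 0.38 and adjusted p = 0.0541 by edgeR). DESeq2 called it (adjusted p = 0.0486), as did limma on log2(RPKM + 1) (adjusted p = 0.0235). Pgam1, the mutase between Pgk1 and enolase, had only 11 to 26 reads per library, and its groups overlapped (adjusted p = 0.407). Eno3, the muscle form of enolase, was at 6.30 ± 2.33 CPM in saline, against 3.76 ± 0.742 CPM in DT (SD, n = 3; edgeR log2 fold change -0.74, adjusted p = 0.125). Without saline library 1 it passed (adjusted p = 0.0396). Eno3 overlaps 3675 bases of Pfn1, which had 3103 to 7793 reads, and skeletal muscle markers, its usual company, summed to 8.56 to 15.7 CPM.

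Gapdh, normally among the most abundant transcripts of any cell, was one of the lowest members here, so the sequence that members share with other genes was measured. Of the 50-base windows in its coding transcripts, 58.4% occurred in transcripts of 222 other annotated genes, of which 213 were pseudogenes. For Pgk1 the share was 68.0%, for Eno1 49.5%, for Bnip3 46.3% and for Pgam1 41.5%. Ldhb had 21.0%, Gpi1 19.0%, Pkm 18.4%, Ldha 10.4%, Tpi1 6.83% and Aldoa 6.57%, and the other 23 members had under 1%. Only reads that align uniquely were counted, and how much of the low level of these genes comes from that was not tested. Gapdh, Pgk1, Eno1, Bnip3 and Pgam1 are therefore left out of the order of levels given below. That order, of Aldoa, Ldha and Pkm, and the isozyme shares carry the same limit. Unannotated copies and inexact matches were not searched. Enolase reads could also fall on the Eno1b copy, which had 62 to 76 reads in saline and 75 to 141 in DT, far fewer than Eno1 with 2452 to 5295.

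**Figure D2:**
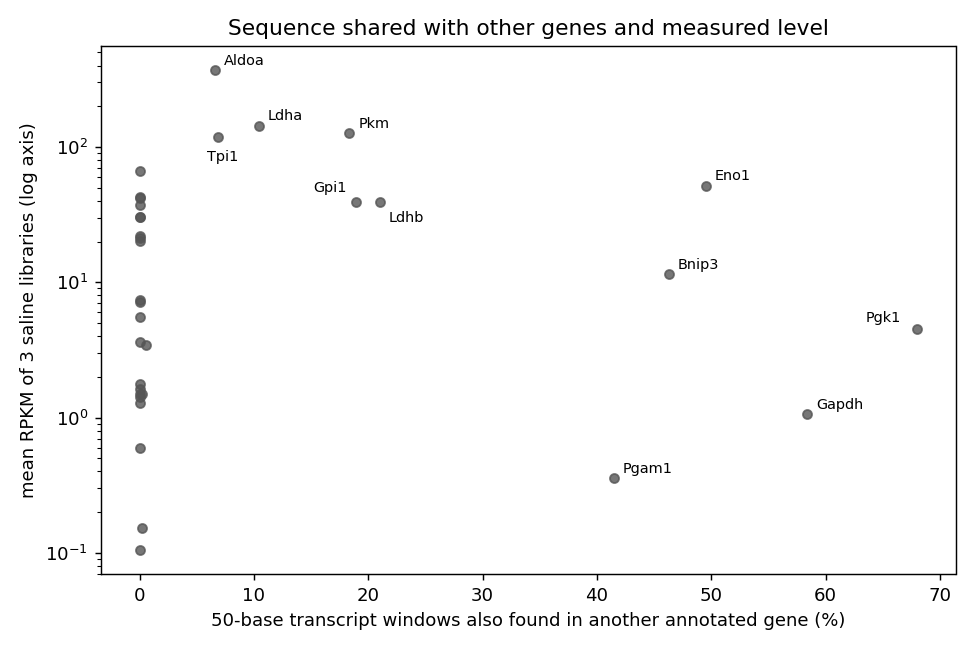
Each point is a member, with the share of its 50-base transcript windows that also occur in another annotated gene on the horizontal axis and its mean deposited RPKM in 3 saline libraries on a logarithmic vertical axis. Pgk1 (68.0%), Gapdh (58.4%) and Pgam1 (41.5%) combine much shared sequence with low levels, while Eno1 (49.5%) was still at 48.1 to 56.1 RPKM.

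Among the genes of pyruvate and lactate, 2 of 6 rose and 1 fell (median log2 fold change 0.51), beside 17.2% higher and 11.9% lower over all genes tested. Ldha (Entrez 16828, chromosome 7 from 46842274 to 46855627), the subunit that favours the reduction of pyruvate to lactate, was at 279, 306 and 301 CPM in saline, against 531, 638 and 608 CPM in DT. It rose 2.01-fold (log2 fold change 1.004 with SE 0.13, adjusted p = 0.000493), far beyond the spread of either group. Ldhb, the subunit that favours the reverse reaction, was at 57.2, 51.3 and 54.5 CPM in saline, against 34.9, 47.5 and 42.4 CPM in DT. All its DT libraries lay below all saline libraries, but the difference did not pass (log2 fold change -0.39 with SE 0.15, adjusted p = 0.0868). When counts were scaled by library size only, it did (-0.48, adjusted p = 0.0477).

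Pdk2 (Entrez 18604, chromosome 11 from 95026258 to 95041371), a kinase that inactivates pyruvate dehydrogenase, was at 167, 169 and 161 CPM in saline, against 113, 61.6 and 79.0 CPM in DT. Saline libraries were almost equal and DT libraries spread widely below them, DT library 2 lowest. Pdk2 fell by 0.97 on the log2 scale (SE 0.20 and adjusted p = 0.00591). Pdk1, a sister kinase and a known HIF-1 target, was at 42.1, 29.5 and 35.1 CPM in saline, against 50.1, 26.1 and 31.9 CPM in DT, with overlapping groups (log2 fold change 0.02 with SE 0.24, adjusted p = 0.956). Its sign differed among the alternatives, from -0.30 to 0.17. Slc16a1, the lactate carrier MCT1, rose from 6.80, 6.20 and 6.99 CPM to 9.43, 19.1 and 12.5 CPM (log2 fold change 1.03 with SE 0.28, adjusted p = 0.0200). This call was lost without saline library 2 (adjusted p = 0.0690), DT library 2 (0.69, adjusted p = 0.108) or DT library 3 (adjusted p = 0.0578). Slc16a3, the carrier MCT4, had only 2 to 27 reads per library and did not pass (adjusted p = 0.165). It overlaps 1292 bases of Csnk1d, which had 2453 to 5065 reads.

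Neither glucose carrier passed, by edgeR, DESeq2 or limma-voom, and both had an unadjusted p above 0.05. Slc2a1 (GLUT1), the main glucose carrier of keratinocytes, was at 125, 131 and 109 CPM in saline, against 106, 101 and 102 CPM in DT. All DT libraries were lower, by 0.24 on the log2 scale (SE 0.13), which did not pass (adjusted p = 0.179). Slc2a3 (GLUT3), a carrier of high affinity, was at 8.63 ± 1.37 and 7.14 ± 2.67 CPM (SD, n = 3; edgeR adjusted p = 0.540), with DT library 1 lowest at 4.08 CPM.

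Of the 9 enzymes of the upper part of glycolysis 1 rose and 2 fell, with a median log2 fold change of -0.13. The background over all genes tested was 17.2% higher and 11.9% lower. Hk2 (Entrez 15277, chromosome 6 from 82725025 to 82774454), the inducible hexokinase that commits glucose to the cell, was at 162, 117 and 86.2 CPM in saline, against 57.9, 75.4 and 55.0 CPM in DT. The saline libraries themselves ranged widely, with library 1 highest, yet all lay above DT. Hk2 fell by 0.96 on the log2 scale (SE 0.22 and adjusted p = 0.0109), and without DT library 3 the adjusted p was 0.0501. Hk1, the constitutive form, was at 171 ± 12.3 CPM in saline, against 156 ± 32.7 CPM in DT (SD, n = 3; edgeR adjusted p = 0.567). Aldoc (Entrez 11676, chromosome 11 from 78323073 to 78327781), the aldolase known from brain, was at 70.4, 85.9 and 92.5 CPM in saline, against 54.9, 36.8 and 46.4 CPM in DT. It fell by 0.85 (SE 0.18 and adjusted p = 0.00657), and no library of DT reached the lowest saline value. Aldoa, the main aldolase, was at 763 ± 70.0 and 828 ± 19.7 CPM (SD, n = 3; edgeR adjusted p = 0.500).

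Tpi1, which interconverts the triose phosphates that leave aldolase, rose modestly from 208, 193 and 203 CPM to 233, 289.8 and 307 CPM (log2 fold change 0.46 with SE 0.14, adjusted p = 0.0304). The call was lost in 7 of 16 alternatives, among them those without saline library 1, 2 or 3 (adjusted p = 0.0607, 0.113 and 0.0743), without DT library 2 or 3 (adjusted p = 0.119 and 0.176), and when scaled by library size only (adjusted p = 0.0821). The phosphofructokinases, which catalyse the committed step, did not pass. Pfkp, the platelet form, was higher in every DT library (378, 445 and 499 CPM against 596, 502 and 554 CPM, log2 fold change 0.32, adjusted p = 0.113). Pfkl, the liver form, and Pfkm, the muscle form, overlapped between groups (log2 fold change -0.18 and -0.33, adjusted p = 0.368 and 0.282). The isomerase Gpi1 stood at 119.6 ± 8.01 and 129.8 ± 14.6 CPM (SD, n = 3; edgeR adjusted p = 0.535).

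The Pfkfb enzymes make and degrade fructose 2,6-bisphosphate, the strongest activator of phosphofructokinase. Pfkfb2 (Entrez 18640, chromosome 1 from 130689043 to 130729253) was at 69.4, 75.8 and 83.3 CPM in saline, against 48.9, 44.9 and 50.7 CPM in DT. The groups were well apart, and Pfkfb2 fell by 0.66 (SE 0.14 and adjusted p = 0.00613). It overlaps 4747 bases of Yod1, which had 278 to 324 reads in saline and 135 to 223 in DT, and whether counting used strand is not stated. Pfkfb3, the form with the highest kinase activity, ranged from 9.16 to 38.7 CPM within saline alone and from 21.6 to 38.4 CPM in DT (adjusted p = 0.464). Pfkfb4 was at 9.24 ± 2.27 and 5.68 ± 1.62 CPM (SD, n = 3; edgeR log2 fold change -0.71, adjusted p = 0.102, and -0.91 with adjusted p = 0.0457 without saline library 1).

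**Figure D3:**
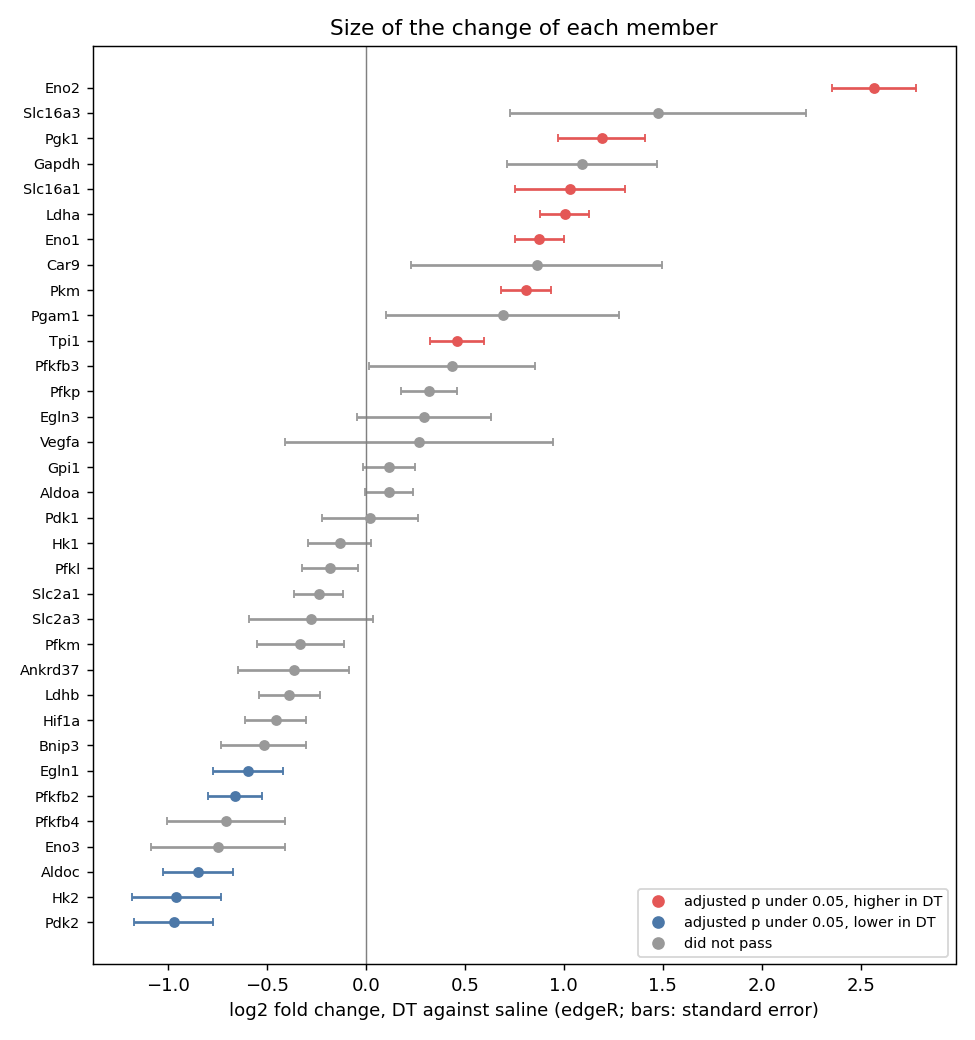
Points give the log2 fold change of DT against saline for each of the 34 members, ordered by size, with bars for the standard error; red and blue points passed the test as higher and lower, grey points did not pass. Eno2 stands apart at 2.57, the other 6 red points lie between 0.46 and 1.19, and the 5 blue points between -0.97 and -0.59.

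On the authors' RPKM scale, which divides by gene length but counts unique reads only, Aldoa had the highest value of the members in both groups (345 to 409 RPKM in saline and 395 to 419 in DT). Ldha (136 to 149 and 254 to 316) came next, then Pkm (116 to 141 and 209.6 to 242). In saline library 1 alone Tpi1 stood above Pkm, at 122 against 116 RPKM. No order is drawn for Gapdh, Pgk1, Eno1, Bnip3 and Pgam1, whose shared sequence is given above, and where they would stand with all reads counted was not tested. Summed over the 7 lower enzymes the level was 176, 206 and 179.7 RPKM in saline, against 317, 369 and 335 RPKM in DT. Summed over the 9 upper enzymes it was 677, 752 and 700.5 RPKM in saline, against 748, 769 and 765 RPKM in DT. The DT libraries lay well above the saline libraries for the lower enzymes, and for the upper enzymes the ranges met, with DT library 1 below saline library 2. Tpi1 was counted with the upper enzymes. The lower sum was mostly Pkm and Eno1 (48.1 to 56.1 RPKM in saline and 88.1 to 100.9 in DT), both called above. Gapdh, Pgk1 and Pgam1 added little to it, and Aldoa was the largest part of the upper sum. Each sum is set only beside the same sum in the other libraries, and the lower sum is not a separate result for all 7 enzymes.

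**Figure D4:**
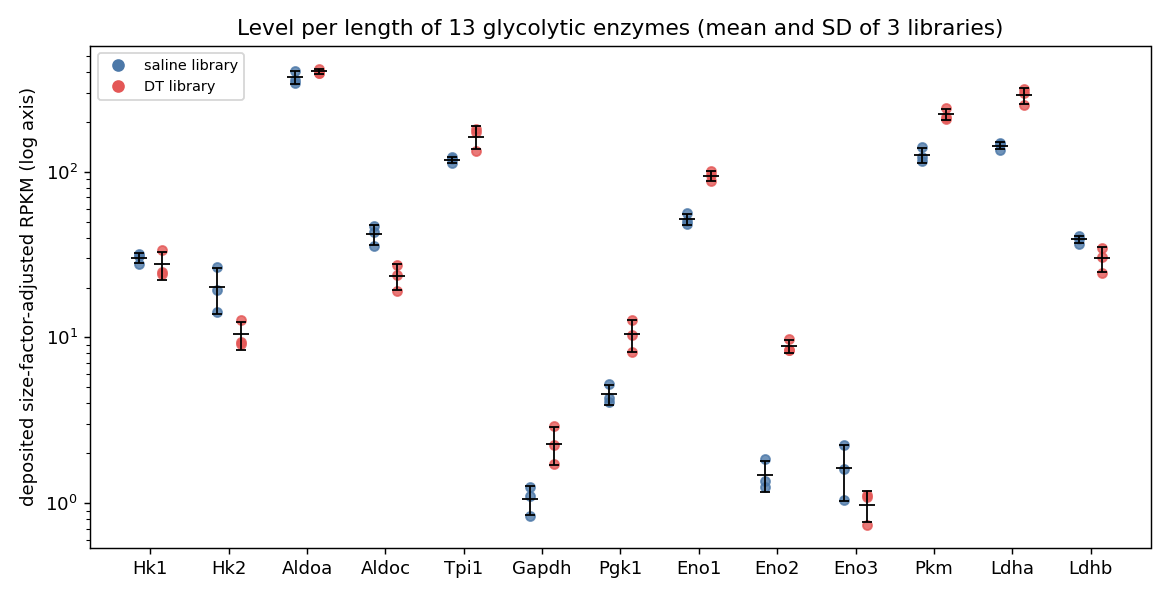
The deposited RPKM of 13 glycolytic enzymes is plotted for each library on a logarithmic axis, in the order of the pathway, with the mean and SD of each group of 3. From Tpi1 rightwards DT points lie above saline points except for Eno3 and Ldhb, while Hk2 and Aldoc lie below.

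Many steps are served by isozymes, so the share of each isozyme in the sum of those among the 34 members was computed from RPKM in every library. Isozymes outside the 34, such as Pdk3, Pfkfb1 and Egln2, were not in these sums, so a share is not one of the whole family. In 8 of 14 shares the groups did not overlap, and the CPM of 45.9% of all genes tested did not overlap either. The shares of Pfkl, Pfkm and Pfkp depend on one another, as do those of Pfkfb2, Pfkfb3 and Pfkfb4. With 3 libraries against 3 an exact two-sided permutation test cannot go below p = 0.1, which these 8 shares reached (0.175 adjusted over the 14 shares), so none can pass a threshold of 0.05. Ldha made up 76.8%, 80.2% and 78.9% of lactate dehydrogenase in saline and 91.2%, 90.1% and 90.7% in DT. That was a difference of 12.03 percentage points, against SDs of 1.72 and 0.534. Pdk1 made up 7.71% ± 1.296 of the Pdk1 and Pdk2 sum in saline and 14.2% ± 0.561 in DT (SD, n = 3; exact p = 0.1), although Pdk1 itself was level. The Hk2 share of the hexokinases went from 45.8%, 38.2% and 33.95% to 21.8%, 33.7% and 27.5%, with saline library 3 and DT library 2 nearly meeting.

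The Aldoa share of the aldolases went from 89.8% ± 1.21 to 94.5% ± 1.06 (SD, n = 3; exact p = 0.1). Among enolases Eno1 went from 94.3% ± 1.14 to 90.6% ± 0.819, and Eno2 took 2.43% to 3.10% in saline and 7.58% to 9.15% in DT. Pfkp went from 41.4% ± 3.80 to 51.3% ± 2.23 of the phosphofructokinases. Pfkfb2 went from 61.9% ± 10.7 to 46.1% ± 3.62 of Pfkfb2, Pfkfb3 and Pfkfb4, and Egln1 from 84.6% ± 5.30 to 75.0% ± 3.80 of Egln1 and Egln3. Shares of Slc2a1, Pfkl, Pfkm, Pfkfb3, Pfkfb4 and Slc16a1 overlapped between groups (exact p = 0.2 to 0.9). Eno1 shares far more sequence with other genes than Eno2 (0.197%), and Ldhb more than Ldha, so with unique alignment the shares are not true ratios of transcripts.

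**Figure D5:**
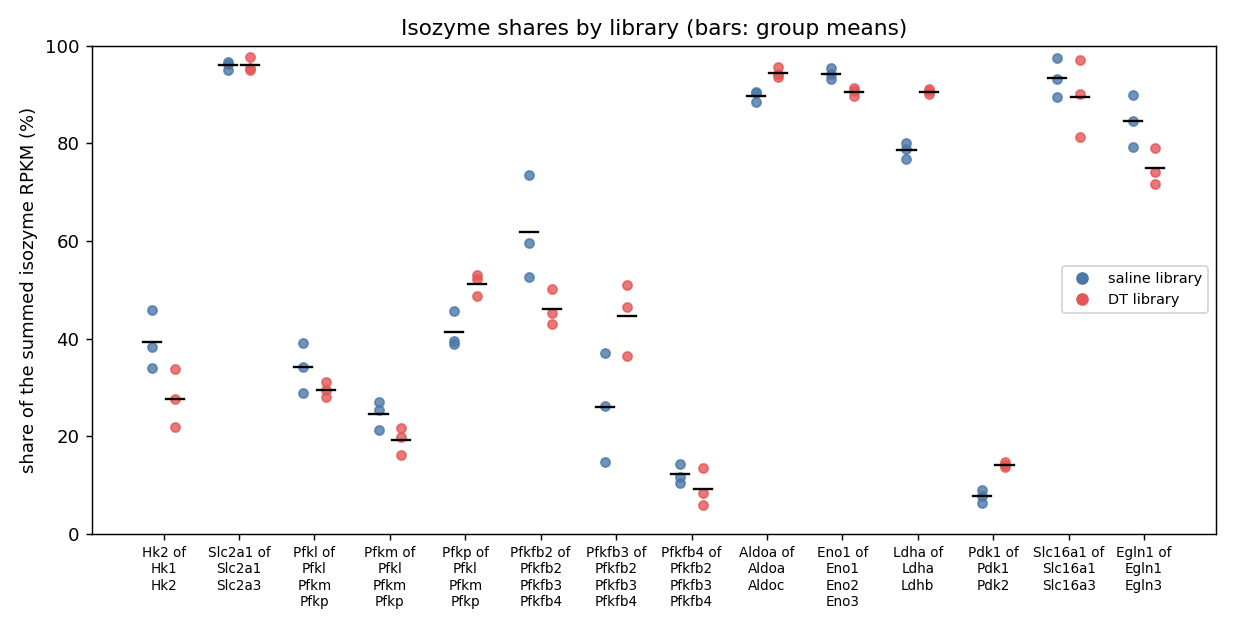
For each isozyme the share in the summed RPKM of the genes listed under it is plotted in percent for 3 saline (blue) and 3 DT (red) libraries, with a bar at each group mean. Ldha (76.8% to 80.2% against 90.1% to 91.2%) and Pdk1 (6.36% to 8.95% against 13.6% to 14.7%) lie clearly apart between the groups.

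Of the oxygen-sensing genes, Egln1 (PHD2; Entrez 112405, chromosome 8 from 124908587 to 124949254), the main prolyl hydroxylase that marks HIF-1alpha for destruction and itself a HIF-1 target, was at 31.7, 27.6 and 22.7 CPM in saline, against 18.0, 17.7 and 18.7 CPM in DT. The DT libraries were nearly equal and all below saline, and Egln1 fell by 0.59 (SE 0.18 and adjusted p = 0.0314). The call was lost without saline library 1 or 2 (adjusted p = 0.0692 and 0.0927) and without DT library 2 or 3 (adjusted p = 0.0816 and 0.0806). Hif1a, the oxygen-regulated subunit of HIF-1, was at 126, 97.1 and 100.2 CPM in saline, against 68.6, 89.3 and 78.2 CPM in DT. It lay just outside the threshold (log2 fold change -0.46 with SE 0.16, adjusted p = 0.0506) and passed in 7 of 16 alternatives, among them DESeq2 (adjusted p = 0.0385) and limma-voom (adjusted p = 0.0496), and without DT library 2 (-0.58, adjusted p = 0.0476). Its mRNA level says nothing of the protein, which is controlled by degradation. Egln3 (PHD3) was at 3.67 ± 1.18 and 4.51 ± 0.814 CPM (SD, n = 3; edgeR adjusted p = 0.543).

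Of the 4 hypoxia targets on the list 0 passed by edgeR, DESeq2 or limma-voom, and the groups overlapped in each. Over all genes tested edgeR called 29.0%, and in 45.9% the groups did not overlap. Bnip3 alone had an unadjusted p under 0.05 by edgeR (0.0367). Vegfa, the endothelial growth factor, had 8 to 30 reads per library (adjusted p = 0.792). Car9, a carbonic anhydrase of the cell surface and a sensitive marker of hypoxia, was at 2.86, 0.740 and 0.564 CPM in saline, against 1.501, 3.69 and 2.47 CPM in DT (adjusted p = 0.334). Saline library 1 was the odd one, and without it Car9 passed with a log2 fold change of 1.94 (adjusted p = 0.0274). Car9 overlaps 1722 bases of Arhgef39, which had 3, 60 and 55 reads in saline and 126, 211 and 396 in DT. Bnip3, a mitophagy receptor, was at 16.7, 20.8 and 26.7 CPM in saline, against 16.9, 13.7 and 14.2 CPM in DT (log2 fold change -0.52, adjusted p = 0.0978). Without saline library 1 Bnip3 passed (-0.69, adjusted p = 0.0303), so that this library decided the call of 2 targets in opposite directions. Ankrd37, a small ankyrin repeat protein, was at 5.71 ± 0.958 and 4.45 ± 0.841 CPM (SD, n = 3; edgeR adjusted p = 0.360).

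Other genes of the same pathways came from lists chosen with earlier results known. Of 46 further hypoxia-inducible genes 37 were tested, and 9 rose and 7 fell, with a median log2 fold change of 0.20. Angptl4, a secreted inhibitor of lipoprotein lipase, rose from 5.51, 1.99 and 2.78 CPM to 218, 51.8 and 118 CPM (log2 fold change 5.23 with SE 0.55, adjusted p = 0.000203). Hmox1 (log2 2.13), Tfrc (2.04), the transferrin receptor, Wsb1 (1.60) and Tmem45a (0.97) rose as well. Bhlhe41, a repressor of the circadian network, went the other way from 779.9, 634 and 594 CPM to 153, 237 and 149 CPM (-1.90, SE 0.20, adjusted p = 0.000203). Ndufa4l2 (-1.44), Ppp1r3c (-1.42), Mxi1 (-0.96) and Rora (-0.92) also fell. Beside these counts, and those of the next list, stand 17.2% higher and 11.9% lower among all genes tested. Of 17 other oxygen-sensing genes 15 were tested: Cul2 (0.58), Eloc (0.58) and Elob (0.56), parts of the ubiquitin ligase that destroys HIF-1alpha, rose, and Cited2 (-1.07), a brake on HIF-1, fell.

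At the entry of pyruvate into mitochondria 5 of 12 genes rose and the other 7 did not pass (median log2 fold change 0.51). The background over all genes tested was 17.2% higher and 11.9% lower. Pdk3, another pyruvate dehydrogenase kinase, was at 26.0, 27.1 and 29.1 CPM in saline, against 64.6, 60.6 and 57.2 CPM in DT (log2 fold change 1.15 with SE 0.14, adjusted p = 0.000436), opposite to Pdk2. The dehydrogenase components Pdhx (0.66), Dld (0.57) and Pdhb (0.51) and the pyruvate carrier Mpc1 (0.80) rose too. Among 13 tested carriers of sugars and monocarboxylates (17 listed) 4 rose and 1 fell, beside the same background. Slc2a5, the fructose carrier GLUT5, went from 5.64, 5.87 and 7.86 CPM to 20.9, 28.5 and 35.5 CPM (log2 fold change 2.13 with SE 0.25, adjusted p = 0.000326). Slc2a6 (4.47), Slc2a4 (1.69) and Emb (0.68), a partner of the lactate carriers, rose, and Slc2a12 (-0.67) fell. Slc2a6 had only 0, 7 and 13 reads in saline libraries 1 to 3, against 175, 60 and 189 in DT libraries 1 to 3.

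Of 16 other enzymes of glycolysis and gluconeogenesis tested (24 listed) 6 rose and 2 fell. The background for this count and those below was 17.2% higher and 11.9% lower among all genes tested. Pgm1, which links glycogen to glucose 6-phosphate, went from 31.4 ± 1.21 to 56.8 ± 6.76 CPM (SD, n = 3; edgeR log2 fold change 0.85, adjusted p = 0.00272). Fbp2 (3.15), Galm (0.95), Tigar (0.75) and Pfkfb1 (1.27) rose, with Fbp2 under 1 CPM in saline, and the testis form Gapdhs (-0.75) and Ldhd (-0.77) fell. Gapdhs (chromosome 7 from 30729779 to 30744791) overlaps Sbsn (30732674 to 30756134), one of the suprabasal markers listed. Whether its reads came from Sbsn was not tested. In the pentose phosphate pathway Tkt (0.69) and G6pdx (0.49), its first enzyme, rose, and the other 9 of 11 genes did not pass. Of 5 genes of the glucose-sensing MondoA network Arrdc4 rose (1.01), while Txnip, its best-known target, ranged from 1513 to 2275 CPM in saline and 1325 to 2813 CPM in DT and did not pass.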

How the data were processed

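The 6 libraries were grouped by the treatment in the labels, 3 saline and 3 DT, and numbered within a group in record order, which pairs nothing. Extraction used RNeasy Micro columns and DNase, per the labels' protocols. The submitters' processing notes name GSNAP and GRCm38; aligner version, gene annotation, read length and strand setting were not found in the sources used. The deposited count is the number of reads aligning uniquely to a gene model, and the deposited RPKM is adjusted by a size factor, per the file headers. Per library, RPKM equalled the counts divided by gene length and by 1 factor.

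The main test used edgeR 4.0.16 under R 4.3.3 (genes kept by filterByExpr at its count of 10 and total of 15, TMM, robust quasi-likelihood test, no covariates, Benjamini-Hochberg over 15132 genes, threshold 0.05). Levels are CPM after TMM scaling, and standard errors are the log2 fold change over the root of the F statistic. The test was also run on simulated data with the same dispersion for every gene. Those data held no deviating library and changed only well-counted genes, so they say nothing of members with few reads. Symbols came from RefSeq GRCm38.p6 (31049 of 36528 identifiers), exons and transcripts from GENCODE M21, and sequences from RefSeq. Alternatives used DESeq2 1.42.0, limma 3.58.1, other scalings and filters, identifier series and consecutive identifiers as blocks, and each library left out. The fit within the larger identifier series was added after the data were seen. Members, lists, roles and named genes (all members, and up to 5 genes a direction with the smallest p in each pathway list) were chosen with earlier results of these data known.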

Additional observations from a re-analysis of the deposited data

How the results depend on the processing

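Of the 12 members called, 4 (Eno1, Eno2, Pkm and Ldha) passed in all 16 alternatives, and 4 more (Pgk1, Pdk2, Aldoc and Pfkfb2) in all but the fit within the larger identifier series. None of the 12 changed sign. That fit, with 2 libraries a group, called 1570 genes (1097 higher, 473 lower) against 4395 (2600 and 1795), and 4 members higher and 1 lower against 7 and 5. With 1 library left out, the count of genes called ranged from 2581 to 4871 (2889 without saline library 2, 2621 and 2581 without DT library 2 and 3), of higher genes from 1564 to 2826, of lower genes from 996 to 2045, of members higher from 5 to 8 and of members lower from 3 (without DT library 3) to 7. Isozyme shares without overlap numbered 8 to 10, and 10 with counts not divided by length. The median log2 fold change of members was 0.07, and -0.034 with scaling by library size only (which moved the median of all genes from -0.01 to -0.11, with 2099 genes higher and 2316 lower), 0.041 without a filter on low counts, 0.042 with a mean count of at least 10, 0.048 with consecutive identifiers as a pair, 0.057 with limma-voom, 0.018 with limma on log2(RPKM + 1), and -0.022 to 0.087 with a library left out. The cause was not tested.

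Signs turned for members that had not passed. Pdk1 was at -0.088 with library size only, at -0.0087 without a filter, -0.0094 with a mean count of 10 or more, -0.019 with the pair, -0.0042 by limma-voom, -0.011 by limma on RPKM, and from -0.30 to 0.17 with a library left out. Vegfa was at -0.044 and -0.23 without saline library 3 and DT library 2 (range -0.23 to 1.01), and Slc2a3 at 0.00048 without DT library 1 (range -0.49 to 0.00048). The share of Slc2a1 differed by -0.389 and -0.730 percentage points without saline library 3 and DT library 1, and that of Slc16a1 by 0.213 without DT library 1 (ranges -0.730 to 0.643 and -7.70 to 0.213). The labels give no replicate numbers, so pairing rests on consecutive identifiers alone. Their deviations were correlated at 0.0763, 0.131 and 0.339, and used as a pair they called 4592 genes. Low read counts limit Pgam1, Vegfa, Slc16a3, Car9 and Gapdh, with at most 77 reads in a library, and the cause of these low counts was not tested.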
